A study of Mus musculus with 23 samples.

Results

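The genes described are 10 genes of enteroendocrine cells, the hormone-secreting cells of the intestinal epithelium: *Chga*, *Chgb*, *Neurod1*, *Neurog3*, *Cck*, *Gcg*, *Gip*, *Sct*, *Sst* and *Tac1*. The list is fixed by gene names and its rule uses no measured value, and all 10 were found among the 22350 genes of the RNA-seq reference, the 22230 of the organoid Ribo-seq reference and the 22314 of the mouse Ribo-seq reference. The study asked how loss of Raptor, a component of the growth-regulating kinase complex mTORC1, changes intestinal stem cells, and measured mRNA by RNA-seq and ribosome-protected fragments (footprints) by Ribo-seq. There were 23 libraries from C57BL/6 mice or from small intestinal organoids, which are epithelial cultures grown from crypts.

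In RNA-seq, wild type (WT) organoids were labelled VillinCre.ERT2.RPL22.HA, a genotype with an intestinal epithelial Cre that tamoxifen activates and an HA-tagged ribosomal protein. The Rptor fl/fl organoids were labelled VillinCre.ERT2.Rptor.fl/fl, with no RPL22.HA in the label, so that in this assay deletion of *Rptor* and absence of the tag cannot be told apart. Each of these groups had 2 organoid lines with 2 technical libraries per line, which were summed. Stem cell enriched (SCe) organoids had the genotype of the WT organoids and 3 cultures, grown with 10 µM CHIR99021, a GSK3 inhibitor, and 1.5 mM valproic acid, a histone deacetylase inhibitor. Ribo-seq of organoids compared 3 Rptor fl/fl libraries that carried RPL22.HA with 3 SCe libraries, and Ribo-seq of mice compared 3 Lgr5Cre.ERT2.RPL22.HA (WT) animals with 3 animals that also carried Rptor.fl/fl. In the mice Cre was driven from *Lgr5*, a gene of crypt base stem cells, and tagged ribosomes were pulled down from lysate of the whole small intestine. The labels call all groups other than SCe untreated, whereas the study's methods describe induction with tamoxifen. Age is not in the labels.

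Enteroendocrine cells arise from crypt progenitors that switch on *Neurog3*, which encodes the transcription factor that commits a cell to the endocrine fate, followed by *Neurod1*, which encodes a factor acting downstream of it. Mature cells pack peptide hormones with chromogranins into dense-core granules and release them in response to nutrients. Most cells make a few hormones each, such as *Gip* and *Cck* in cells of the upper small intestine, *Gcg* in L cells, *Sst* in D cells and *Tac1* in serotonin-making enterochromaffin cells.

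The start regions of the genes show which of them share short binding motifs. In the 250 bases before the RefSeq start of each gene (GRCm38.p6, the same coordinates as mm10), 4 motifs were searched on both strands. TGACGTCA is the cAMP response element, known from *Sst*, and CAGATG is the E-box form bound by factors such as NEUROD1. The cAMP response element was found in 2 of the 10 genes and in 1.55% of all 32851 start regions. CAGATG was found in 4 of 10 and in 14.4% of all. The general E-box, CANNTG, which includes CAGATG, was in all 10 and in 66.2% of all. The core promoter motif TATAAA was found in 2 of 10, *Gcg* and *Sct*, and in 12.4% of all. The stretches below are printed 5′ to 3′ on the strand of the gene, with the cAMP response element or CAGATG in capitals, and are shown so that the genes that share a motif can be followed through the comparisons below.
Sst, chr16:23890874-23890903, minus strand: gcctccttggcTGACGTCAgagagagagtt
Chgb, chr2:132781559-132781588, plus strand: gggctgctccgTGACGTCAgggctgagcga
Gcg, chr2:62483775-62483804, minus strand: cagcgtaaaaagCAGATGagcaaagtgagt
Gcg, chr2:62483719-62483748, minus strand: ccccattatttaCAGATGagaaatttatat
Cck, chr9:121495707-121495736, minus strand: gcactgggtaaaCAGATGactggctgcgaa
Sct, chr7:141279354-141279383, minus strand: cctggacaCAGATGaagatgtccatttcgc
Tac1, chr6:7554876-7554905, plus strand: cacaatttggtcCAGATGttatggactccg
The element of *Sst* began 48 bases before the start and that of *Chgb* 72 bases before it. The CAGATG of *Cck* lay 30 bases before the start, those of *Gcg* 139 and 83 bases, that of *Tac1* 173 bases and that of *Sct* 242 bases. GENCODE vM21, the annotation of the counts, begins *Sst*, *Chgb* and *Tac1* further upstream than RefSeq does, so these 3 stretches lie at or inside the GENCODE gene. A match describes the letters of the window and is not a measured binding site.

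Depth ranged from 27439433 to 67598842 counted reads per line or culture in RNA-seq, from 1106157 to 8257453 footprints per library in organoid Ribo-seq and from 772034 to 8238353 in mice. Values are given as CPM, counts scaled to a common library size by TMM (edgeR's CPM). *Rptor* (ENSMUSG00000025583.15) fell in RNA-seq of Rptor fl/fl against WT organoids, from WT values of 51.4 and 47.8 CPM to 14.9 and 15.4 CPM (log2 fold change −1.71, standard error 0.0835, adjusted p = 0.00516). Its footprints did not pass the threshold in organoids (−0.53 against SCe, adjusted p = 0.318) or in mice (−0.28 against WT, adjusted p = 0.150), so the Ribo-seq groups are named by their labels. Adjusted p-values throughout are from edgeR's quasi-likelihood test with Benjamini-Hochberg adjustment over all genes tested in a comparison. With 2 or 3 samples a group, they measure the spread between these lines, cultures or animals. Standard errors, here and in the figures, were worked back from that test. Each is the absolute log2 fold change divided by the square root of the F statistic. In bulk libraries, fewer enteroendocrine cells and less mRNA per cell cannot be told apart.

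Levels of different genes were ranked only as CPM per kilobase of the counted sequence. In WT organoids *Chgb*, a chromogranin of the granule matrix, had the highest level at 60.0 ± 16.7 CPM per kilobase (SD, n = 2 lines), followed by the incretin gene *Gip* at 42.3 ± 12.8. The 2 lines of these genes overlapped. *Cck*, the gene of cholecystokinin, stood at 18.7 ± 3.19 and *Chga*, the other chromogranin, at 17.8 ± 4.02, also with overlapping lines and below both lines of *Gip*. Next came *Tac1*, which encodes substance P, at 8.03 ± 4.11, *Gcg*, which encodes GLP-1 and GLP-2, at 7.46 ± 5.55, *Sst* (somatostatin) at 6.35 ± 1.95, *Neurog3* at 6.27 ± 1.51 and *Sct* (secretin) at 6.12 ± 0.305. These 5 did not differ beyond the spread between lines. *Neurod1* was lowest at 1.47 ± 0.325 and below both lines of every other member. *Chgb* alone made up 60.1% and 59.7% of the summed CPM of the 10 genes in the WT lines, 76.8% and 73.8% in the Rptor fl/fl lines, and between 24.0% and 56.3% in the SCe cultures.

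The first comparison asked how the enteroendocrine genes differed in organoids labelled Rptor fl/fl. The chromogranin and transcription factor genes did not pass the test in either direction, nor did *Gip*, *Sst* and *Tac1*. The hormone genes *Sct*, *Cck* and *Gcg* fell, with folds of 6.80, 6.40 and 8.08 below WT. This was 3 of 10 genes called lower and 0 called higher, where 11.0% of the 14131 genes tested were called lower and 11.6% higher. The median log2 fold change of the 10 genes was −1.92, and it was −0.00494 over all genes tested. At an unadjusted p under 0.05, 6 were lower and 0 higher, and DESeq2 also called 3 lower and 0 higher. These unadjusted and DESeq2 counts, here and in the comparisons below, are given without their share over all genes. They are not read as a result about the 10 genes.

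*Sct* (ENSMUSG00000038580.13, chromosome 7 of mm10 from 141278330 to 141279133, minus strand) encodes secretin, which stimulates bicarbonate release from the pancreas. WT lines had 3.38 and 3.10 CPM and Rptor fl/fl lines 0.390 and 0.557 CPM. The lines of the groups lay far apart and those of a group close together (log2 fold change −2.77, standard error 0.265, adjusted p = 0.0108). *Cck* (ENSMUSG00000032532.7, chromosome 9 from 121489824 to 121495694, minus strand), whose product stimulates gallbladder contraction and pancreatic enzyme release, was at 10.4 and 13.4 CPM in WT and 0.800 and 2.89 CPM in Rptor fl/fl lines (−2.68, standard error 0.591, adjusted p = 0.0384). *Gcg* (ENSMUSG00000000394.15, chromosome 2 from 62474530 to 62483650, minus strand) was at 3.34 and 11.1 CPM in WT and 0.605 and 1.17 CPM in Rptor fl/fl (−3.01, standard error 0.699, adjusted p = 0.0423). Here the WT lines differed from each other 3.31-fold, and the groups still did not overlap. *Sct* kept its call without any 1 of the 4 lines. *Gcg* lost it without WT line 2 (adjusted p = 0.069), Rptor fl/fl line 1 (0.14) or Rptor fl/fl line 2 (0.092), and *Cck* without WT line 1 (0.065) or WT line 2 (0.087). With all 3 RNA-seq groups in 1 fit, where the SCe cultures enter the estimate of the spread, *Sct* kept its call (adjusted p = 0.0175) and *Gcg* (0.0987) and *Cck* (0.178) lost theirs.

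*Gip* (ENSMUSG00000014351.12, chromosome 11 from 96024545 to 96030831, plus strand), which encodes the incretin released by K cells, had 21.7 and 33.5 CPM in WT, beside 0.859 and 6.61 CPM in Rptor fl/fl. The groups did not overlap, but the Rptor fl/fl lines differed from each other 7.70-fold, and the difference of −2.87 (standard error 0.872, adjusted p = 0.0768) did not pass. *Sst* (ENSMUSG00000004366.4, chromosome 16 from 23889573 to 23890958, minus strand), whose product inhibits the release of other hormones, was at 3.58 and 5.57 CPM in WT and 0.0976 and 1.34 CPM in Rptor fl/fl lines. Its difference of −2.64 (standard error 0.972, adjusted p = 0.115) did not pass either, with Rptor fl/fl lines 13.7-fold apart. Both genes passed without Rptor fl/fl line 2 (*Gip* adjusted p = 0.016, *Sst* 0.019), and *Gip* also without Rptor fl/fl line 1 (0.047).

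The chromogranins and the transcription factors had smaller differences. *Chga* (ENSMUSG00000021194.6, chromosome 12 from 102554969 to 102565028, plus strand), the standard marker of endocrine cells, was at 28.2 and 38.9 CPM in WT and 8.37 and 20.8 CPM in Rptor fl/fl lines. The groups did not overlap, and the difference of −1.20 did not pass (standard error 0.457, adjusted p = 0.124). Over the alternative fits the difference of *Chga* ranged from −2 to −0.68. It was called with the replicate number as a block (adjusted p = 0.00837), as the last section gives. *Chgb* (ENSMUSG00000027350.8, chromosome 2 from 132781278 to 132795079, plus strand) was at 132 and 197 CPM in WT and 77.0 and 174 CPM in Rptor fl/fl lines, which overlapped (−0.39, standard error 0.429, adjusted p = 0.543). *Neurog3* (ENSMUSG00000044312.4, chromosome 10 from 62133090 to 62134763, plus strand) was at 8.02 and 11.3 CPM in WT and 6.01 and 13.9 CPM in Rptor fl/fl, so that the Rptor fl/fl lines bracketed the WT lines (0.05, standard error 0.435, adjusted p = 0.952). *Neurod1* (ENSMUSG00000034701.9, chromosome 2 from 79452521 to 79456751, minus strand) was at 3.40 and 4.65 CPM in WT and 1.33 and 2.87 CPM in Rptor fl/fl (−0.93, standard error 0.418, adjusted p = 0.170). *Tac1* (ENSMUSG00000061762.12, chromosome 6 from 7554879 to 7565834, plus strand) was at 5.68 and 11.7 CPM in WT and 4.74 and 11.5 CPM in Rptor fl/fl, with full overlap (−0.09, standard error 0.541, adjusted p = 0.921). Line 2 was above line 1 for all 10 genes in Rptor fl/fl, by 1.43-fold (*Sct*) to 13.7-fold (*Sst*), and for 9 in WT, the exception being *Sct*, by 1.28-fold (*Cck*) to 3.31-fold (*Gcg*).

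**Figure D1:**
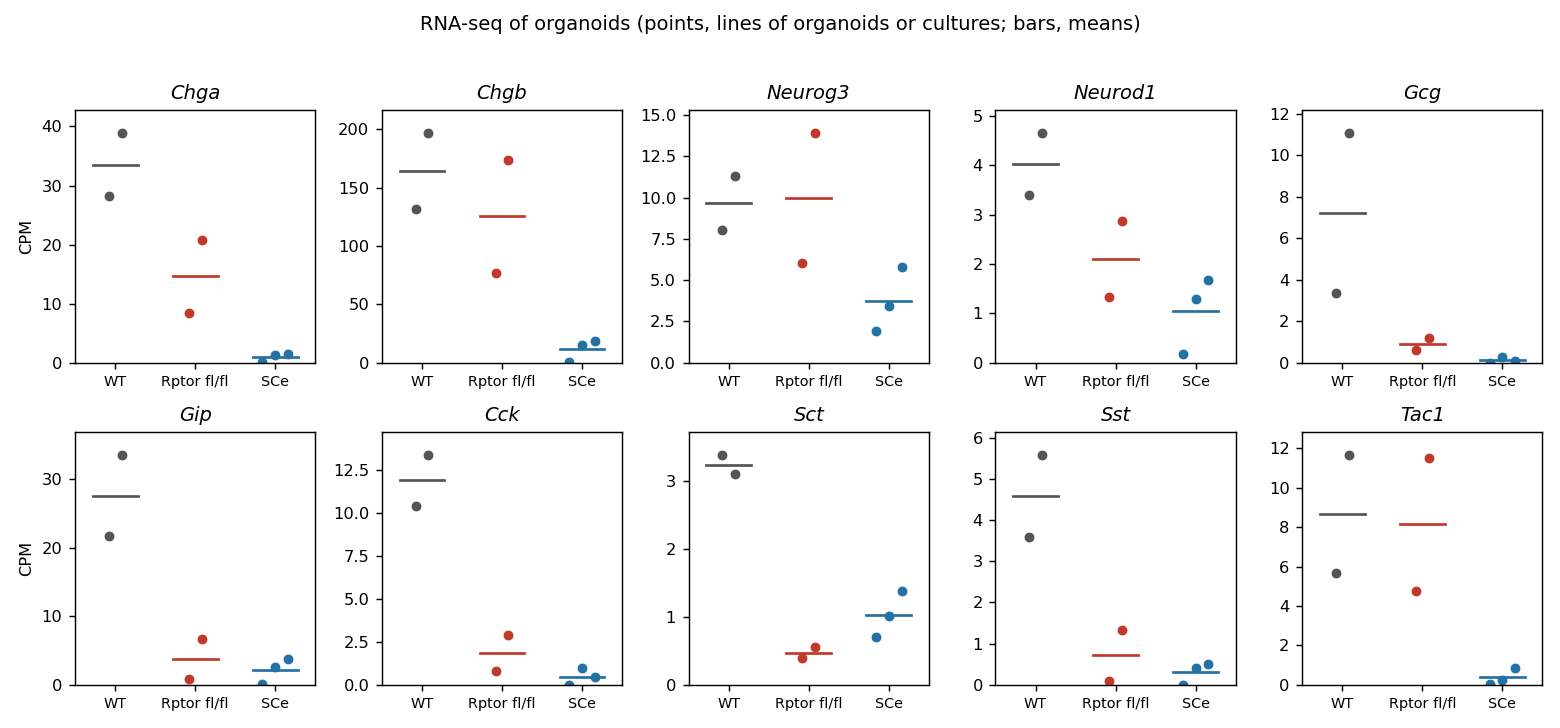
RNA-seq CPM (vertical axis, linear from 0) of the 10 genes in each WT line, Rptor fl/fl line and SCe culture, with bars at the group means. *Sct*, *Cck* and *Gcg* lie below WT in both Rptor fl/fl lines, *Neurog3* and *Tac1* overlap WT, and the SCe cultures lie below both WT lines for every gene. For *Sct* they lie above the Rptor fl/fl lines, from 0.700 to 1.37 CPM against 0.390 and 0.557 CPM.

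Related genes were read from 6 further lists. Of 12 other hormone and transmitter genes 6 could be tested, and 2 fell, with a list median of −1.13. These were *Nts*, the neurotensin gene (−3.25, adjusted p = 0.0212), and *Ucn3*, which encodes urocortin 3 (−1.60, adjusted p = 0.0313). *Tph1*, the enzyme of serotonin synthesis in enterochromaffin cells, was at 7.45 and 11.7 CPM in WT and 6.44 and 17.6 CPM in Rptor fl/fl lines. Of 19 other transcription factors tested, *Mnx1* (−1.93, adjusted p = 0.0349) and *Hhex* (−1.79, adjusted p = 0.0400) fell and *Onecut3* rose (2.13, adjusted p = 0.0109), with a median of −0.43. Of 20 granule and prohormone-processing genes, *Ddc*, an enzyme of monoamine synthesis (−0.85, adjusted p = 0.0309), and *Aplp1* (−1.24, adjusted p = 0.0376) fell, and *Pam*, the peptide-amidating enzyme, rose (0.75, adjusted p = 0.0262), with a median of −0.55. Among 7 nutrient-sensing genes *Trpa1*, an irritant-sensing channel of enterochromaffin cells, fell (−3.25, adjusted p = 0.0290), *Abcc8*, a subunit of the ATP-sensitive potassium channel, rose (1.45, adjusted p = 0.0247), and the median was −0.14. None of 5 receptors for the hormones was called by edgeR (median 0.44). Of 8 genes of secretory cell fate in the crypt, *Sox4* fell (−0.72, adjusted p = 0.0134), *Dll1* (0.64, adjusted p = 0.0165) and *Spdef*, a goblet cell factor (0.82, adjusted p = 0.0350), rose, and the median was −0.12.

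Markers of other epithelial cells also moved in this comparison. Of 7 goblet cell genes 4 rose, and their summed level was 1759 to 1898 CPM in WT and 3115 to 4267 CPM in Rptor fl/fl lines. Of 7 Paneth cell genes 6 fell, from 5025 to 6248 CPM in WT to 895 to 1850 CPM in Rptor fl/fl lines. Of 7 stem cell genes 6 fell, from 3604 to 5157 CPM to 829 to 2050 CPM. Enteric neuron genes summed to 8.67 to 10.1 CPM in WT and 3.63 to 6.44 CPM in Rptor fl/fl lines, with *Vip* and *Stmn2* at 0 in all 4. Their part in the values of the enteroendocrine genes was not tested.

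The second comparison set SCe organoids against the same WT lines, and it therefore shares samples with the first. Both chromogranin genes and every hormone or peptide gene of the list fell. This was 8 of 10 genes called lower and 0 higher, where 19.9% of the 14925 genes tested were called lower and 22.4% higher. The median log2 fold change was −3.80, beside 0.02 over all genes. At an unadjusted p under 0.05 there were 9 lower and 0 higher, and DESeq2 called 9 lower and 0 higher.

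SCe culture 1 held the fewest reads of these genes, with 0 counts of *Cck*, *Gcg* and *Sst*, 1 of *Tac1*, 2 of *Gip*, 5 each of *Chga* and *Neurod1*, 21 of *Sct*, 29 of *Chgb* and 58 of *Neurog3*. The summed level of the 10 genes was 4.03 CPM in this culture, 26.4 and 34.2 CPM in the other SCe cultures and 220 and 330 CPM in the WT lines. Even the highest SCe culture was thus well below WT. The same culture stood apart in genes of other cells. Its enterocyte genes summed to 357 CPM against 6368 and 7243 CPM in the other SCe cultures, and its Paneth genes to 919 CPM against 3483 and 4091 CPM. Its stem cell genes were higher, at 1815 CPM against 915 and 910 CPM, as were the secretory fate genes, at 614 CPM against 319 and 299.5 CPM. The part of these in its enteroendocrine values was not tested. The number of all genes called also changed widely with the sample left out, as the last section gives. The counts that follow therefore have no fixed share over all genes beside them. Without SCe culture 1 all 10 genes were called lower. The count was 3 without SCe culture 2, 5 without SCe culture 3 (with *Neurog3* among them), 2 without WT line 1 and 0 without WT line 2.

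*Chga* stood at 0.167, 1.31 and 1.41 CPM in the SCe cultures (log2 fold change −5.03, standard error 0.704, adjusted p = 0.00595) and *Chgb* at 0.967, 14.9 and 18.3 CPM (−3.81, standard error 1.03, adjusted p = 0.0364). *Gcg* had the largest difference of the 10 genes, with 0, 16 and 5 counts, or at most 0.252 CPM (−5.77, standard error 1.02, adjusted p = 0.0109). *Tac1* was at 0.0333, 0.252 and 0.859 CPM (−4.40, standard error 0.982, adjusted p = 0.0212). No SCe value of these 4 genes reached the lower WT line. *Cck* was at 0, 0.962 and 0.447 CPM (−4.54, standard error 1.03, adjusted p = 0.0220), *Sst* at 0, 0.410 and 0.498 CPM (−3.79, standard error 0.972, adjusted p = 0.0312) and *Gip* at 0.0667, 2.65 and 3.76 CPM (−3.61, standard error 1.07, adjusted p = 0.0469). *Sct* had the smallest of the called differences, at 0.700, 1.01 and 1.37 CPM (−1.62, standard error 0.332, adjusted p = 0.0164). The transcription factor genes did not pass. *Neurog3* was at 1.93, 3.42 and 5.81 CPM (−1.35, standard error 0.475, adjusted p = 0.0743) and *Neurod1* at 0.167, 1.29 and 1.67 CPM (−1.89, standard error 0.808, adjusted p = 0.118), and in both the SCe cultures lay below the WT lines.

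**Figure D2:**
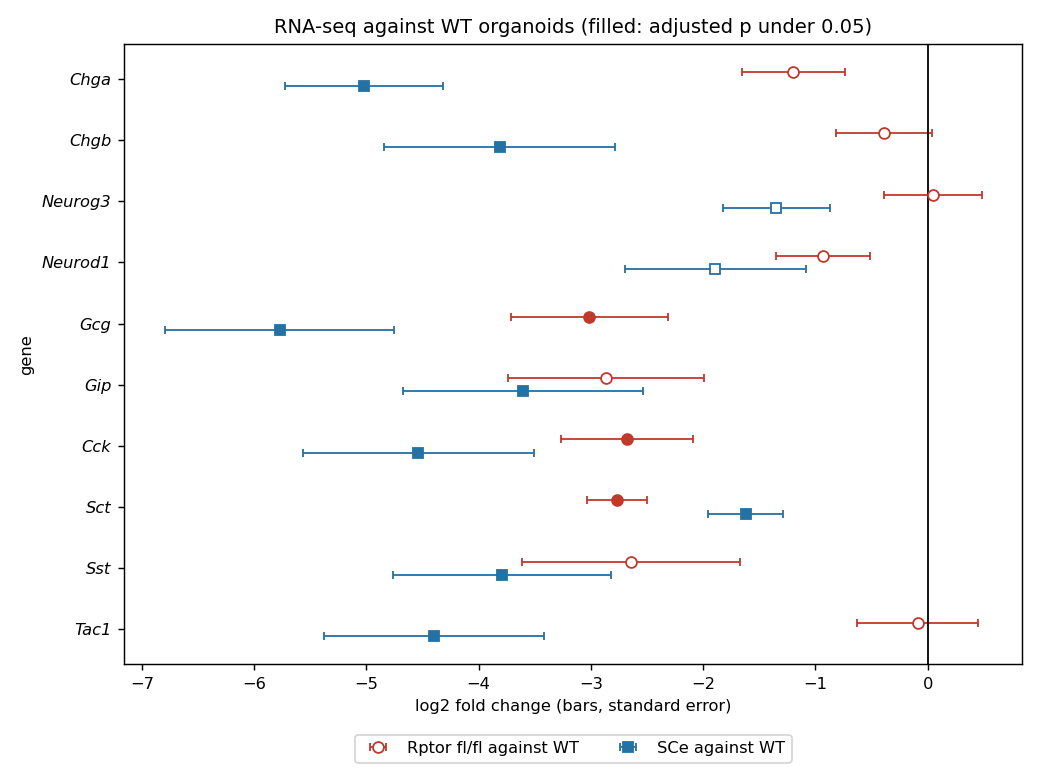
Log2 fold change (horizontal axis, bars are standard errors) of each gene in Rptor fl/fl and in SCe organoids against the same WT lines, with filled symbols for an adjusted p under 0.05. *Gcg* lies at −3.01 and −5.77, *Chgb* at −0.39 and −3.81 and *Tac1* at −0.09 and −4.40, while *Sct* is the gene with the lower value in Rptor fl/fl, −2.77 against −1.62.

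Of 20 other endocrine transcription factors tested here 10 fell and 2 rose (median −1.73). *Pax4*, a factor of early endocrine precursors (−4.59, adjusted p = 0.00301), and *Isl1* (−2.69, adjusted p = 0.00987) fell, and *Onecut3* rose (2.30, adjusted p = 0.0101). Of 7 other hormone and transmitter genes 4 fell and 1 rose (median −3.01). *Tph1* had 1, 8 and 5 counts in the SCe cultures (−6.69, adjusted p = 0.00151), and *Nts* (−3.86, adjusted p = 0.00483) and *Ghrl*, the ghrelin gene (−3.01, adjusted p = 0.0118), fell as well. *Ucn3* had 0 counts in all 3 SCe cultures and 80 over the WT lines, and was at least 39.4-fold lower against a floor of 3 counts over the group. With *Ucn3* at that bound the list's median was the same. Granule genes moved both ways, with 4 higher and 3 lower of 20 (median −0.93). *Aplp1* (2.95, adjusted p = 0.00114) and *Pam* (0.86, adjusted p = 0.00795) rose, and *Ddc* (−1.61, adjusted p = 0.00254) and *Slc18a2*, a vesicular monoamine transporter (−4.33, adjusted p = 0.00582), fell. Of 7 nutrient-sensing genes 4 fell and 2 rose (median −2.06), and the 4 that fell were *Trpa1* (−5.66, adjusted p = 0.00425) and the fatty acid receptors *Ffar2* (−2.33, adjusted p = 0.00704), *Ffar3* (−4.76, adjusted p = 0.0109) and *Ffar1* (−2.06, adjusted p = 0.0181). Among 8 hormone receptors *Gipr* rose (1.99, adjusted p = 0.00503) and *Sstr5* fell (−1.94, adjusted p = 0.0240), with a median of 1.03. Of 8 secretory fate genes *Dll1* (−1.62, adjusted p = 0.00159), *Gfi1* (−1.69, adjusted p = 0.00395) and *Spdef* (−2.83, adjusted p = 0.00545) fell, with a median of −0.80. Enteric neurons also make *Chgb*, *Sst* and *Tac1*. Their marker genes summed to 31.8 to 45.0 CPM in SCe and 8.67 to 10.1 CPM in WT, with *Ret*, *Uchl1* and *Elavl3* higher and *Vip* and *Stmn2* at 0 in every SCe culture. The goblet list summed to 246 to 480 CPM in SCe and 1759 to 1898 CPM in WT. The part of these in the enteroendocrine values was not tested.

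The third comparison, Rptor fl/fl against SCe organoids, reuses the samples of the first 2 and gives the RNA side of the translation measurement. The groups differ in the Rptor fl/fl label, in RPL22.HA in the label and in CHIR99021 and valproic acid, and these cannot be told apart. *Chga* (log2 fold change 3.88, standard error 0.832, adjusted p = 0.0177), *Chgb* (3.45, standard error 1.05, adjusted p = 0.0484) and *Tac1* (4.33, standard error 1.01, adjusted p = 0.0224) were higher in Rptor fl/fl. This was 3 of 10 called higher and 0 lower, where 21.0% of 15103 genes tested were called higher and 21.8% lower. At an unadjusted p under 0.05 there were 4 higher and 1 lower, and DESeq2 called 4 higher and 0 lower. *Gcg* (2.80, adjusted p = 0.0616), *Cck* (1.91, adjusted p = 0.253), *Neurog3* (1.42, adjusted p = 0.0976), *Sst* (1.17, adjusted p = 0.520), *Neurod1* (0.98, adjusted p = 0.399) and *Gip* (0.78, adjusted p = 0.681) did not pass. *Sct* was the member with a negative value (−1.12, adjusted p = 0.0837), with both Rptor fl/fl lines below all 3 SCe cultures. The median of the 10 genes was 1.66, beside −0.01 over all genes. No member was called without either Rptor fl/fl line. Only *Gcg* was called without SCe culture 2 (adjusted p = 0.048) and only *Tac1* without SCe culture 3 (0.025), and without SCe culture 1 *Gcg* joined the 3 higher genes (0.019) and *Sct* was called lower (0.020).

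Of 19 other endocrine transcription factors *Pax4* (4.66, adjusted p = 0.00698), *Isl1* (1.88, adjusted p = 0.0365) and *Fev*, a factor of serotonin-making cells (2.60, adjusted p = 0.0394), were higher in Rptor fl/fl than in SCe, and *Hhex* (−2.43, adjusted p = 0.0208) and *Egr3* (−3.30, adjusted p = 0.0392) lower (median 1.12). Of 6 other hormone and transmitter genes 3 were higher and 2 lower (median 0.62), among them *Tph1* (7.04, adjusted p = 0.00206) and *Ghrl* (2.39, adjusted p = 0.0267) higher and *Vgf* lower (−3.10, adjusted p = 0.00485). *Ucn3* was at least 13.0-fold higher against the same floor. Of 20 granule genes *Ddc* (0.78, adjusted p = 0.00756) was among 2 higher, and *Aplp1* (−4.17, adjusted p = 0.00107), *Pcsk1*, a prohormone convertase (−2.23, adjusted p = 0.0125), and *Slc18a1* (−0.53, adjusted p = 0.0331) were the 3 lower (median −0.08). *Ffar2* was higher among 5 nutrient-sensing genes (2.21, adjusted p = 0.0211; median −0.44) and *Gipr* lower among 7 receptors (−1.45, adjusted p = 0.0157; median −0.84). *Dll1* (2.28, adjusted p = 0.000978), *Spdef* (3.66, adjusted p = 0.00258) and *Gfi1* (1.16, adjusted p = 0.0411) were higher among 8 secretory fate genes (median 0.81). Markers of other cells moved as well. Of 7 goblet genes 6 were higher in Rptor fl/fl (median 3.64), and their sum was 3115 to 4267 CPM against 246 to 480 CPM in SCe. Of 6 tuft cell genes 5 were higher (median 2.32), at 31.2 to 50.2 CPM against 7.93 to 13.7 CPM. Of 6 enteric neuron genes 3 were lower (median −2.54), at 3.63 to 6.44 CPM against 31.8 to 45.0 CPM. Their part in the enteroendocrine values was not tested.

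Footprints of the same genes were then compared between organoids labelled Rptor fl/fl and SCe organoids. These groups differ both in the Rptor fl/fl label and in CHIR99021 and valproic acid, which cannot be told apart. No WT organoids were among these Ribo-seq libraries. A footprint level carries both the amount of an mRNA and its occupation by ribosomes, and their ratio is given further on as translation efficiency. The chromogranins, *Gip*, *Sst* and *Tac1* were higher in the Rptor fl/fl-labelled libraries. Of 9 genes tested 5 were called higher and 0 lower, where 6.63% of 10817 genes tested were called higher and 9.84% lower. At an unadjusted p under 0.05 there were 6 higher and 0 lower, and DESeq2 called 5 higher and 0 lower. *Gcg* did not pass the filter on low counts. It had 13, 3 and 18 footprints in the Rptor fl/fl-labelled libraries and 0 in all 3 SCe libraries, and was at least 4.15-fold higher against a floor of 3 counts over the group, a bound that covers counting error only.

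The Rptor fl/fl-labelled libraries held 484, 424 and 415 CPM of *Chgb* and the SCe libraries 26.8, 44.0 and 44.4 CPM (log2 fold change 3.48, standard error 0.230, adjusted p = 0.000192). *Chga* was at 76.7, 63.3 and 62.3 CPM and 4.74, 5.92 and 8.52 CPM (3.28, standard error 0.257, adjusted p = 0.000343). *Gip* was at 59.5, 43.2 and 35.6 CPM and 1.05, 3.38 and 5.06 CPM (3.66, standard error 0.412, adjusted p = 0.00146). In these 3 genes the lowest Rptor fl/fl-labelled library was far above the highest SCe library, and the calls held without any 1 library. *Tac1* was at 13.9, 10.3 and 11.6 CPM, and its SCe footprints lay in SCe library 3 alone (0, 0 and 18 footprints, 4.14 CPM in library 3; 2.48, standard error 0.726, adjusted p = 0.0491). *Sst* had 33, 25 and 22 footprints in the Rptor fl/fl-labelled libraries and 0, 1 and 0 in SCe (4.57, standard error 1.03, adjusted p = 0.0187). From the summed footprints this was 29.3-fold, with an exact 95% interval for counting error of 5.11 to 1171. The call of *Tac1* was lost without any 1 Rptor fl/fl-labelled library (adjusted p = 0.145, 0.110 and 0.135) or without SCe library 2 (0.092). That of *Sst* was lost without any 1 Rptor fl/fl-labelled library (0.076, 0.063 and 0.055) or without SCe library 3 (0.058).

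*Cck* was at 6.70, 8.03 and 6.92 CPM and 1.05, 0.845 and 4.83 CPM, so the groups did not overlap, but the difference did not pass (1.33, standard error 0.541, adjusted p = 0.129) unless SCe library 3 was left out (2.82, 0.013). *Sct* was at 6.03, 1.61 and 3.83 CPM and 1.05, 2.54 and 0 CPM, which overlapped (2.21, standard error 1.03, adjusted p = 0.176). Both transcription factor genes overlapped as well. *Neurog3* was at 20.1, 24.4 and 17.4 CPM and 5.26, 22.8 and 22.8 CPM (0.24, standard error 0.422, adjusted p = 0.742), and *Neurod1* at 6.37, 0.964 and 2.47 CPM and 0.526, 5.07 and 1.84 CPM (0.55, standard error 0.871, adjusted p = 0.707).

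**Figure D3:**
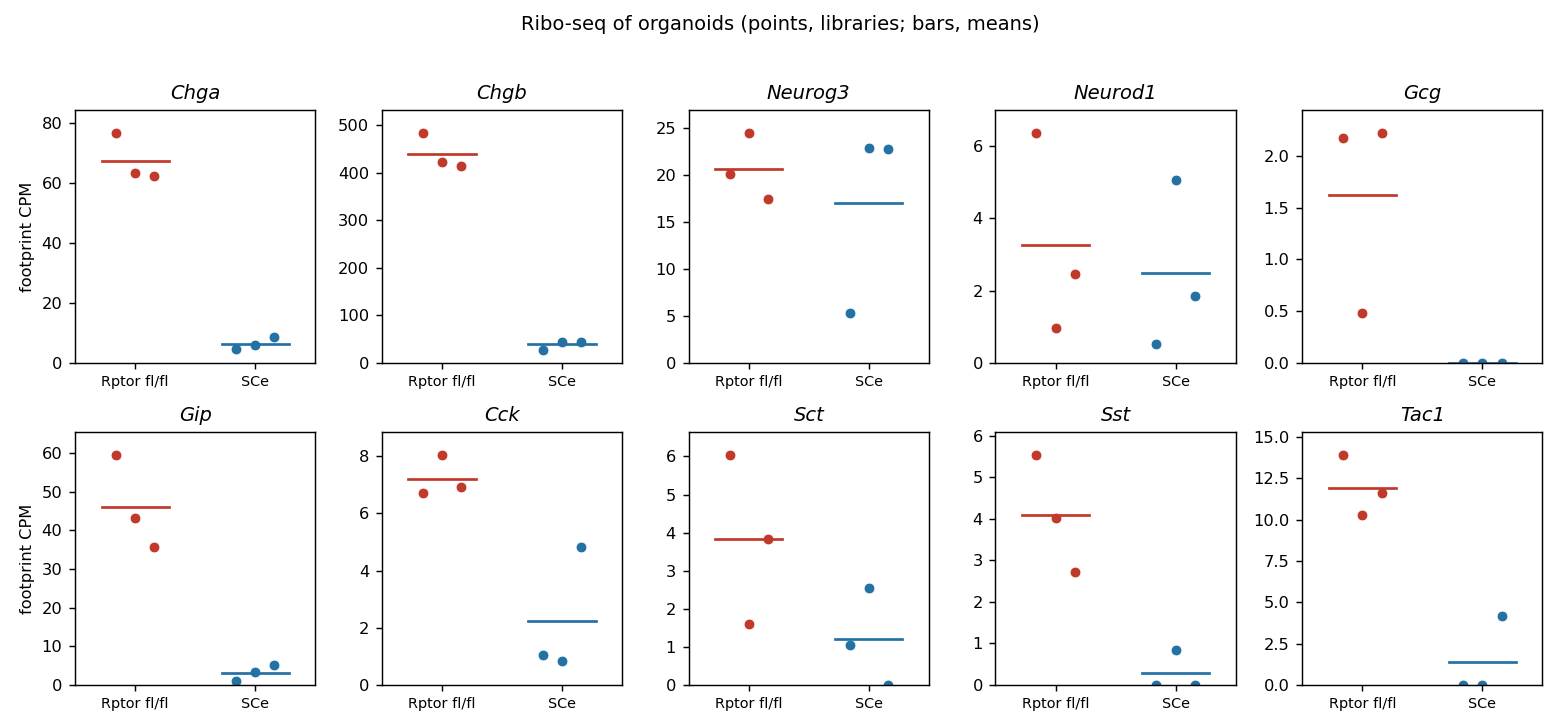
Footprint CPM (vertical axis, linear from 0) of the 10 genes in the 3 Rptor fl/fl-labelled libraries and the 3 SCe libraries, with bars at the group means. *Chga*, *Chgb*, *Gip*, *Gcg*, *Sst*, *Tac1* and *Cck* do not overlap between groups, and *Neurog3* reaches 22.8 CPM in 2 SCe libraries, within the range of 17.4 to 24.4 CPM of the Rptor fl/fl-labelled libraries.

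Per kilobase of the coding sequence used for counting, footprints in the Rptor fl/fl-labelled libraries were highest on *Chgb* at 212 ± 18.1 CPM per kilobase (SD, n = 3), *Gip* at 95.8 ± 25.4 and *Chga* at 46.9 ± 5.61, which did not overlap. *Neurog3* at 30.1 ± 4.87 and *Tac1* at 28.6 ± 4.96 overlapped and were above *Cck* at 18.2 ± 1.90. *Sst* at 10.3 ± 3.54 and *Sct* at 8.20 ± 4.75 overlapped, and *Neurod1* at 2.92 ± 2.49 and *Gcg* at 2.78 ± 1.67 were lowest. In SCe *Neurog3* had the highest mean, 24.5 ± 14.7, and *Chgb* stood at 18.5 ± 4.82, within its spread.

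Of 8 other endocrine transcription factors with enough footprints *Pdx1* (1.31, adjusted p = 0.00828) and *Myt1* (2.90, adjusted p = 0.0176) were higher in the Rptor fl/fl-labelled libraries (median 0.27, beside −0.02 over all genes). Of 2 other hormone and transmitter genes *Tph1* was higher (3.55, adjusted p = 0.0113), with 39, 42 and 80 footprints against 0, 0 and 5. Of 11 granule genes *Ddc* was higher (1.35, adjusted p = 0.00891) and *Pcsk1* (−2.66, adjusted p = 0.00589) and *Aplp1* (−1.87, adjusted p = 0.00690) lower (median −0.05). *Ffar4*, a receptor for long-chain fatty acids, was lower among 2 nutrient-sensing genes (−1.31, adjusted p = 0.0285), and *Dll1* higher among 8 secretory fate genes (2.00, adjusted p = 0.00494; median 0.47). No hormone receptor gene passed the filter. All 7 goblet genes were higher in the Rptor fl/fl-labelled libraries, at a summed 3260 to 5290 CPM against 1173 to 1531 CPM in SCe, and 3 of 7 enterocyte genes were higher, at 7849 to 8373 CPM against 944 to 3646 CPM. The summed enteric neuron list was 4.98 to 8.71 CPM against 16.8 to 27.9 CPM. Their part in the enteroendocrine values was not tested.

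Translation efficiency, the footprints of a gene relative to its mRNA, was compared as the difference between the 2 assays in the contrast of Rptor fl/fl with SCe. The Rptor fl/fl label and the SCe medium cannot be told apart in this contrast either. None of the 9 genes tested was called in either direction by edgeR, where 1.12% of 10747 genes tested were called higher and 1.81% lower. At an unadjusted p under 0.05 there was 1 higher and 0 lower, and DESeq2 called 0. The gene at the unadjusted threshold was *Sct* (log2 difference 3.44, standard error 1.23, edgeR adjusted p = 0.153), whose mRNA was −1.12 and whose footprints were 2.21 in the same contrast. *Sst* (3.69, standard error 2.43, adjusted p = 0.437) and *Gip* (2.98, standard error 1.48, adjusted p = 0.290) had values of similar size. *Tac1* (−1.75, standard error 1.32, adjusted p = 0.503) and *Neurog3* (−1.11, standard error 0.764, adjusted p = 0.458) were negative. *Chgb* (0.09, standard error 1.04), *Neurod1* (−0.35, standard error 1.36), *Cck* (−0.48, standard error 1.31) and *Chga* (−0.50, standard error 0.799) were within 1 standard error of 0, with adjusted p between 0.781 and 0.978. Without SCe culture 1 of RNA-seq the standard errors were smaller for *Chgb* (0.62, standard error 0.448) and *Chga* (−0.10, standard error 0.532). SCe cultures carry the numbers 1 to 3 in both assays, and the labels do not say whether a number marks the same culture. The model treats them as separate samples. Number 1 had the lowest sum over the 10 genes in both, 4.03 CPM beside 26.4 and 34.2 CPM in RNA-seq and 40.5 CPM beside 85.4 and 91.6 CPM in Ribo-seq. The RNA-seq Rptor fl/fl lines lack RPL22.HA in their label, while the Ribo-seq ones carry it. *Rptor* itself was −1.89 in RNA-seq and −0.53 in Ribo-seq in this contrast (log2 difference 1.43, standard error 0.390, edgeR adjusted p = 0.0777). Whether the samples of both assays had lost *Rptor* to the same degree was not tested.

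**Figure D4:**
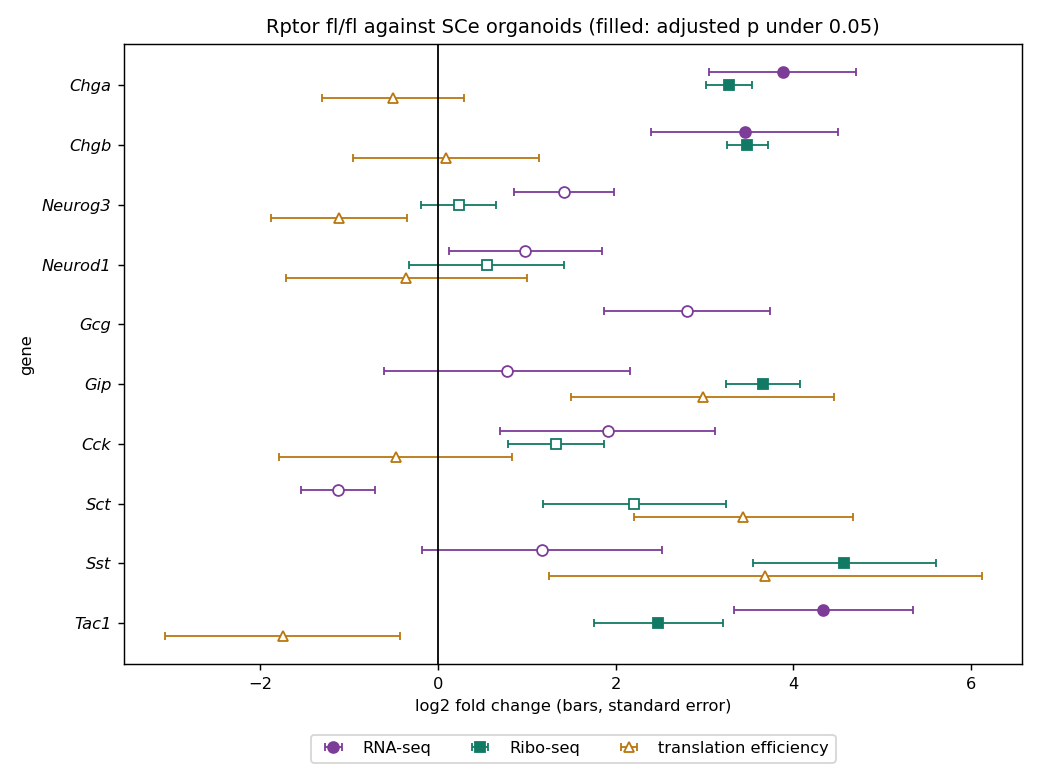
Log2 fold change, Rptor fl/fl over SCe, from RNA-seq, from Ribo-seq and for their difference, translation efficiency (horizontal axis, bars are standard errors, filled symbols for an adjusted p under 0.05). *Chga* and *Chgb* have similar values in both assays, 3.88 and 3.28 for *Chga* and 3.45 and 3.48 for *Chgb*, while *Sct* is −1.12 in RNA-seq and 2.21 in Ribo-seq; *Gcg* was tested in RNA-seq alone.

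In mice the pulldown asked what ribosomes of *Lgr5*-lineage cells carried, with or without floxed *Rptor*. All 10 genes had footprints in every mouse library. Genes of cells outside the *Lgr5*-positive population were present in every library as well, as given below. The footprints of the 10 genes therefore cannot be assigned to *Lgr5*-lineage cells alone. Of 9 genes tested *Gip* was called lower and 0 were called higher, where 5.97% of 11515 genes tested were called lower and 7.47% higher. At an unadjusted p under 0.05 there were 1 lower and 2 higher, and DESeq2 called 1 lower and 0 higher. The median log2 fold change was −0.08, beside −0.02 over all genes.

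*Gip* was at 92.2, 87.2 and 103 CPM in WT mice and 72.0, 60.9 and 70.6 CPM in mice labelled Rptor fl/fl. The groups did not overlap (log2 fold change −0.50, standard error 0.102, adjusted p = 0.00385), and the call was lost without WT mouse 3 (−0.41, adjusted p = 0.064). *Sst* was at 50.4, 42.0 and 38.1 CPM in WT and 32.5, 36.2 and 35.2 CPM in Rptor fl/fl mice, also without overlap, and did not pass (−0.27, standard error 0.134, adjusted p = 0.207). *Sct* was at 39.3, 31.2 and 29.1 CPM and 41.1, 38.3 and 40.9 CPM, which overlapped (0.34, standard error 0.136, adjusted p = 0.118). *Cck* was at 29.5, 33.4 and 24.0 CPM and 18.4, 23.1 and 25.8 CPM (−0.30, standard error 0.175, adjusted p = 0.296), and *Gcg* at 19.7, 34.8 and 24.9 CPM and 24.6, 22.2 and 25.6 CPM (−0.18, standard error 0.171, adjusted p = 0.562). These overlapped, as did *Tac1* at 3.69, 5.88 and 6.23 CPM and 6.24, 5.48 and 5.10 CPM (−0.08, standard error 0.281, adjusted p = 0.898).

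The mouse labelled Rptor fl/fl number 1 stood apart in the genes of early endocrine cells. *Neurog3* had 83 footprints there (27.3 CPM) and 2, 3 and 10 in the WT mice and 6 and 6 in the other mice labelled Rptor fl/fl, at most 2.46 CPM. The gene did not pass the filter on low counts, and without the filter its log2 fold change was 2.26 (adjusted p = 0.019), which rests on this mouse. *Chga* was at 153 CPM in it, 85.5 and 88.4 CPM in the other Rptor fl/fl mice and 79.9, 99.4 and 115 CPM in WT (0.05, standard error 0.186, adjusted p = 0.900). *Chgb* was at 245 CPM in it, 149 and 157 CPM in the others and 182, 187 and 194 CPM in WT (−0.07, standard error 0.147, adjusted p = 0.831). Without this mouse *Chgb* was called lower (−0.31, adjusted p = 0.0099). *Neurod1* was at 7.56, 5.48 and 3.44 CPM in Rptor fl/fl mice, with its highest value again in mouse 1, and at 4.92, 0.904 and 1.65 CPM in WT (1.47, standard error 0.495, adjusted p = 0.0631). It passed without Rptor fl/fl mouse 3 (0.041), without WT mouse 1 (0.038) or without the filter (0.032). The same mouse had 45.7 CPM of *Lgr5*, where the other 5 mice had 6.37 to 11.1 CPM, a summed 67.7 CPM of the other endocrine transcription factors against 31.5 to 45.5 CPM, and 273 CPM of the secretory fate genes against 161 to 199 CPM. Its Paneth genes summed to 10163 CPM, where the other mice labelled Rptor fl/fl had 6263 and 6198 CPM and the WT mice 10640 to 12013 CPM. Its stem cell genes summed to 545 CPM, beside 382 and 355 CPM in the other mice labelled Rptor fl/fl and 546 to 587 CPM in WT, so that it lay near the WT mice in both lists. The part of this mouse's cell makeup was not tested beyond leaving it out.

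**Figure D5:**
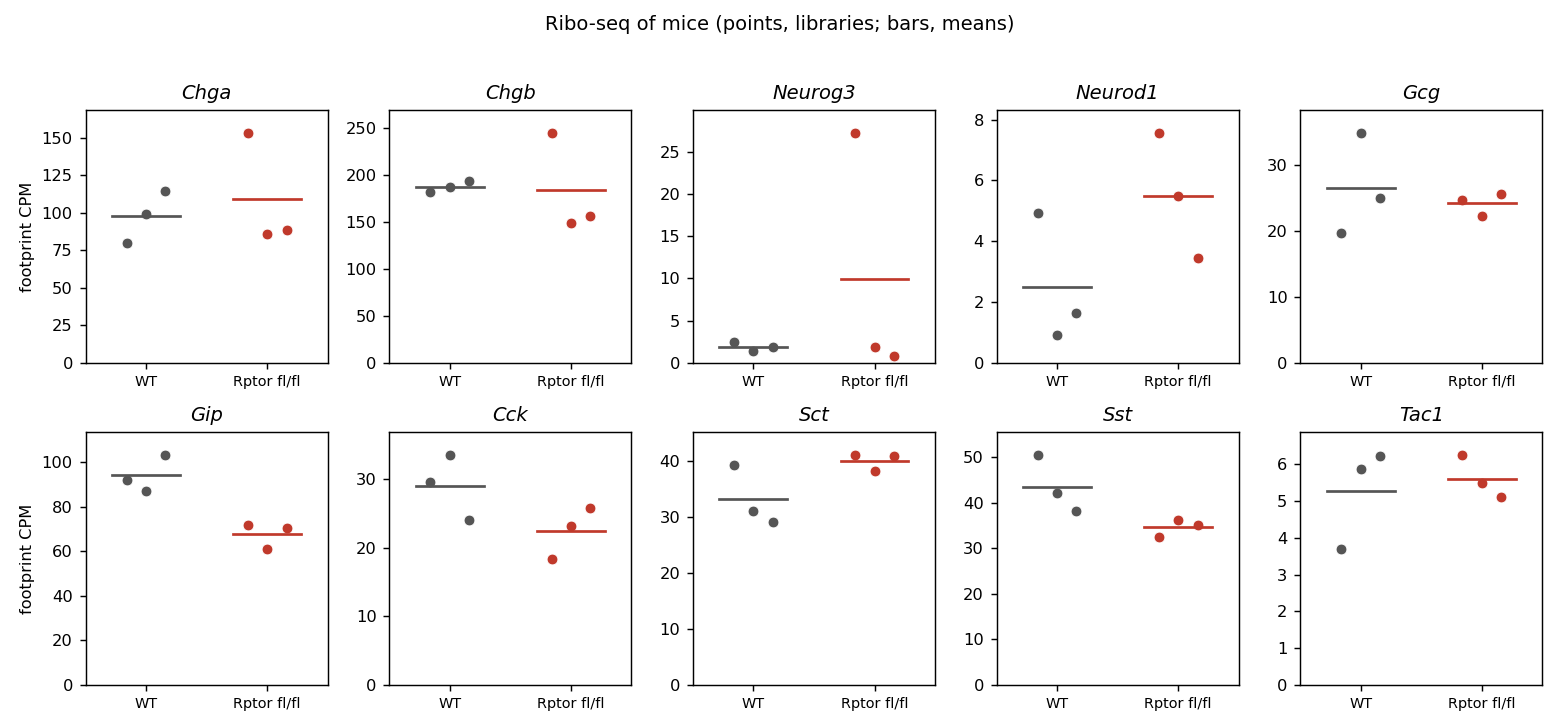
Footprint CPM (vertical axis, linear from 0) of the 10 genes in 3 WT mice and 3 mice labelled Rptor fl/fl, with bars at the group means. *Gip* and *Sst* do not overlap between groups, and 1 mouse labelled Rptor fl/fl lies above all others for *Neurog3* (27.3 CPM), *Chga* (153 CPM) and *Chgb* (245 CPM).

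By CPM per kilobase the order in WT mice began with *Gip* at 177 ± 15.1 (SD, n = 3), above all others. *Chgb* at 74.5 ± 2.42, *Sst* at 73.0 ± 10.5, *Sct* at 67.4 ± 11.3, *Chga* at 62.0 ± 11.0 and *Cck* at 60.6 ± 9.91 came next, and each overlapped its neighbour in this order. *Gcg* at 39.4 ± 11.4 overlapped *Cck*, *Tac1* at 10.8 ± 2.56 was below it, and *Neurog3* at 2.06 ± 0.605 and *Neurod1* at 1.89 ± 1.62 overlapped at the bottom. Mouse footprints were counted on other reference sequences than those of organoids, so levels are not compared between them.

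Of 5 other hormone and transmitter genes with enough footprints in mice, *Ghrl* was lower in the mice labelled Rptor fl/fl (−0.61, adjusted p = 0.0161), at 27.1, 23.0 and 27.7 CPM in WT and 18.4, 15.2 and 17.7 CPM in Rptor fl/fl (median 0.03). Of 13 granule genes *Ddc* (0.38, adjusted p = 0.00522) and *Aplp1* (0.35, adjusted p = 0.0436) were higher and 0 were lower (median 0.22). None of 5 endocrine transcription factors, 2 hormone receptors and 8 secretory fate genes was called by edgeR, and no nutrient-sensing gene passed the filter. Of 6 Paneth genes tested 4 were lower in the mice labelled Rptor fl/fl (summed 6198 to 10163 CPM against 10640 to 12013 CPM), and of 7 goblet genes 4 were higher (30163 to 33787 CPM against 25163 to 25893 CPM), and their part in the value of *Gip* was not tested. The labelled source was checked against markers of other cells. Smooth muscle genes summed to 1264 to 1486 CPM, immune genes to 3375 to 3760 CPM and pancreatic acinar genes to 2562 to 6303 CPM over the 6 mice, enterocyte genes to 39203 to 48501 CPM, and stem cell genes to 355 to 587 CPM, so that genes of cells outside the *Lgr5*-positive population were present in every library. Enteric neuron genes, a source of *Tac1*, *Chgb* and *Sst*, summed to 44.3 to 60.1 CPM in WT and 56.8 to 60.9 CPM in Rptor fl/fl mice. Genes of pancreatic islets, which also make *Gcg* and *Sst*, summed to at most 0.637 CPM, with *G6pc2* and *Slc30a8* at 0 in all 6 mice.

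The likeness of profiles was measured over the 7 RNA-seq lines and cultures as the root mean square distance of mean-centred log2(CPM + 0.1) from *Chga*, over 15135 genes with enough counts. Among the nearest genes were *Slc13a1* (distance 0.276), *Pyroxd2* (0.481), *Hpd* (0.511) and *Cyp2c38* (0.566), none of which is on the lists used here. *Slc13a1* was at 45.2 and 71.0 CPM in WT, 18.4 and 42.1 CPM in Rptor fl/fl and 0.400, 1.86 and 1.75 CPM in SCe. *Chgb* (0.588) and *Tac1* (0.610) followed at ranks 6 and 7. *Cck* came at rank 27, *Gcg* at 29, *Sst* at 183, *Gip* at 188, *Neurod1* at 212 and *Neurog3* at 427. *Sct* lay farthest from *Chga* of the listed genes, at rank 2940. Profiles were not scaled for the size of a change, so genes that change in the same direction can still lie apart. The distance describes 7 samples from 3 groups and carries no test.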

How the data were processed

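RNA-seq of 11 organoid libraries and Ribo-seq of 6 organoid and 6 mouse libraries were analysed. The authors trimmed the footprint reads, set aside those from ribosomal RNA, and used Salmon to assign reads of every library to GENCODE vM21 protein-coding entries (mm10). The submitters' processing notes name cutadapt 1.18 and Salmon 1.1.0. The deposited columns are an estimated count per entry, unscaled for depth, its length, an effective length and the TPM computed by the authors' Salmon run, which was used only to weight the effective length in an alternative. RNA-seq was counted on whole transcripts, organoid footprints on coding sequences with separate entries for 5′ regions, and mouse entries mostly matched in length a coding sequence together with its 5′ region. A further deposited table, on translation efficiency, holds the authors' own ratios, fold changes and p-values, and it was not used.

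Estimated counts were summed per gene and over the technical libraries of a line and rounded to whole numbers. Each of 6 comparisons was fitted on its own groups in R 4.3.3 with edgeR 4.0.16: filterByExpr at a minimum count of 10, TMM scaling, the quasi-likelihood test and Benjamini-Hochberg adjustment at 0.05. For translation efficiency 1 model over both assays gave the assay-by-group interaction, with TMM run per assay. Scripts were tested on simulated data. Alternatives were DESeq2 1.42.0, no count filter, an effective length offset, the replicate number as a block, all 3 RNA-seq groups in 1 fit, technical libraries kept separate and each sample left out in turn. Start regions were taken from RefSeq. The list of 10 genes, the related lists and the tests were drawn up with earlier results of these data known. Besides the 10 genes and *Rptor*, the text names from each of 6 related lists up to 4 genes with the smallest adjusted p among those past the threshold, and the genes nearest to *Chga*. Some genes that this rule names are not reported here. Other values named for context (*Tph1* and *Lgr5*, markers at 0) were chosen after they were seen.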

Additional observations from a re-analysis of the deposited data

Results flagged for a closer look

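Footprints on the 5′ untranslated regions of organoids were counted apart from the coding sequences and entered no comparison of the report. For 7 of the genes every Rptor fl/fl-labelled library held more of these footprints than every SCe library, and for 4 of them each Rptor fl/fl-labelled library also held more than 3. *Neurog3* had 21.0, 36.0 and 46.0 in the Rptor fl/fl-labelled libraries and 1, 6 and 14.0 in SCe. *Gip* had 21, 19 and 18, at the least 18, beside 0, 0 and 5 in SCe. *Chga* had 7.01, 10 and 30 and *Tac1* 6, 5 and 6, with 0 in all 3 SCe libraries. The other 3 genes had few, with 1, 3 and 6 for *Chgb*, 1, 1 and 3 for *Cck* and 3, 1 and 1 for *Sst*, beside 0 in all 3 SCe libraries. As a share of all footprints of the gene in a Rptor fl/fl-labelled library, this was 14.9% to 24.6% for *Neurog3*, 5.59% to 6.60% for *Gip*, 6.00% to 7.25% for *Tac1* and 1.51% to 5.62% for *Chga*. In SCe the share for *Neurog3* was 9.09% to 18.2%, which overlapped. For *Gip* it was 18.5% in SCe library 3, above each Rptor fl/fl-labelled library, and 0% in the other 2. For *Chga* it was 0% in all 3, and for *Tac1* 0% in SCe library 3, with no footprints of the gene in the other 2. The counts are not scaled for depth, and the SCe libraries were shallower. They held 1106157 to 4242423 coding footprints, beside 5992908 to 8257453 in the Rptor fl/fl-labelled libraries. How many of all genes lay apart in the same way was not counted. Over all genes, 5′ regions held 3.82% to 4.25% of the footprints of a Rptor fl/fl-labelled library and 2.97% to 6.98% in SCe, which overlapped. The difference in the counts of the listed genes was not tested.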

How the results depend on the processing

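In 2 or 3 samples a group, leaving out 1 sample moved most counts of called genes. Over all genes the count, without each sample in turn, ranged from 939 to 2126 for Rptor fl/fl against WT in RNA-seq (3195 with all samples), from 2027 to 9530 for SCe against WT (6309), from 2509 to 9101 for Rptor fl/fl against SCe (6452), from 669 to 2682 for organoid footprints (1781), from 25 to 951 for translation efficiency (315) and from 897 to 1954 in mice (1547). Among the 10 enteroendocrine genes the called counts ranged from 1 to 5 lower in Rptor fl/fl against WT, 0 to 10 lower in SCe against WT, 0 to 4 higher and 0 to 1 lower in Rptor fl/fl against SCe, 3 to 5 higher for organoid footprints, and 0 to 1 higher and 0 to 2 lower in mice. Where an arm was left with 1 sample, that sample was assumed to vary like the other group. Log2 values of genes not called changed sign in RNA-seq of Rptor fl/fl against WT for *Chgb* (−1.09 to 0.087), *Neurog3* (−0.68 to 0.53) and *Tac1* (−0.87 to 0.52), and against SCe for *Gip* (−1.35 to 1.61) and *Sst* (−1.68 to 2.08). They did so in organoid footprints for *Neurod1* (−0.37 to 1.23) and *Neurog3* (−0.17 to 0.65), and in mice for *Chga* (−0.26 to 0.21), *Chgb* (−0.31 to 0.059), *Gcg* (−0.31 to 0.031) and *Tac1* (−0.16 to 0.060). In translation efficiency they did so for *Chga* (−1.02 to 0.33), *Chgb* (−0.42 to 0.82), *Neurod1* (−1.27 to 0.32), *Cck* (−1.43 to 1.02) and *Tac1* (−3.02 to 7.14).

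The labels do not say that samples with the same number share a source. In RNA-seq, with only 2 pairs a comparison, the deviations of same-numbered samples correlated at 0.303 for Rptor fl/fl and WT. They correlated at 0.144 and 0.165 for SCe and WT and at 0.197 and 0.250 for Rptor fl/fl and SCe. Differently numbered samples reached similar values, 0.139 for SCe culture 3 with WT line 2 and 0.232 for Rptor fl/fl line 2 with SCe culture 3. The other differently numbered pairs were negative. Deviations from the mean of 2 lines mirror each other, so the 2 pairs of Rptor fl/fl and WT give the same value by construction. Whether a number marks a shared source was not tested. With 3 pairs the deviations of same-numbered samples correlated between −0.0440 and 0.0289 in organoid footprints and between −0.00561 and 0.0340 in mice. With the replicate number as a block, 7 of the 10 genes were lower in Rptor fl/fl against WT (3 without it), with *Gip* (adjusted p = 0.00811), *Chga* (0.00837), *Sst* (0.0181) and *Neurod1* (0.0254) added. In SCe against WT 5 were lower (8 without it), with *Neurog3* gained (0.0303) and *Gip* (0.0518), *Sct* (0.0537), *Sst* (0.0561) and *Cck* (0.0647) lost. *Neurog3* was also gained in Rptor fl/fl against SCe (0.0311) and *Tac1* lost in organoid footprints (0.0507). With the block the counts over all genes were 3154 in SCe against WT, 3413 in Rptor fl/fl against SCe and 4 for translation efficiency. The count over all genes with the block is not given for Rptor fl/fl against WT, so the 7 genes there have no background beside them. With the block *Neurog3* was −0.049 in Rptor fl/fl against WT, *Chgb* −1.19 in translation efficiency and *Chga* −0.026 in mice. With all 3 RNA-seq groups in 1 fit, 1 of the 10 genes was lower in Rptor fl/fl against WT (1544 genes in all) and 1 was lower in Rptor fl/fl against SCe. With technical libraries kept separate, which counts sequencing repeats as samples, 7 were lower in Rptor fl/fl against WT (7208 genes in all), and 5 were higher and 1 lower in Rptor fl/fl against SCe. With an effective length offset 3 of the 10 genes were higher in organoid footprints (649 genes in all), and 116 genes were called for translation efficiency and 683 in mice. DESeq2 called 1206 genes for translation efficiency. With no count filter 2 of the 10 genes were higher in mice. Apart from these settings the cause of a change was not tested. Among the recomputed log2 values of the 10 genes, 512 kept their direction and their side of the threshold, 57 lost a call, 34 gained one and 31 changed sign.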
